A study of Mus musculus with 4 samples.

Results

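The cells described here are pericytes of the embryonic mouse lung, 1210 of the 3085 cells (39.2%, exact 95% binomial interval 37.5 to 41.0) in a sample sorted at E16.5. A cell was taken as a member when at least 3 of the 4 genes Higd1b, Cox4i2, Ndufa4l2 and Kcnj8 were detected in it, when these 4 together reached 300 CPM (UMIs scaled to a total of 1000000), and when neither Pecam1, an endothelial adhesion molecule, nor Epcam, an epithelial one, was detected. The sorted sample came from 1 lung of the C57BL/6 strain that carried an αSMA-GFP reporter, Tbx4-Cre and Rosa26-tdTomato, and its cells were selected as tdTomato-marked descendants of Tbx4-expressing cells that were also positive for the smooth muscle actin reporter. The label calls them fibroblasts. For comparison, 3 wild-type C57BL/6 lungs at E17.5, from which live cells were taken without that selection, held 75, 68 and 59 cells by the same rule, out of 2682, 2140 and 2657. The whole series held 10564 cells. Stage, sorting, reporter alleles and library all changed together between the sort and the lungs, so none of them can be told apart from the others. Because the sort is a single sample and the members were selected on measured values of the same cells, the comparisons below are descriptions with no test, and all intervals cover counting error only.

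Pericytes are mural cells embedded in the basement membrane of capillaries. They are recruited by PDGF-B from endothelial cells acting on the receptor PDGFRβ, they receive Notch signals through NOTCH3, and in the lung they line the capillaries of the developing alveoli. The rule genes encode mitochondrial proteins in 3 cases, namely HIGD1B, the COX4 subunit isoform COX4I2 and the NDUFA4-like protein NDUFA4L2. The fourth gene, Kcnj8, encodes the pore Kir6.1 of an ATP-sensitive potassium channel.

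The sort held 17975262 UMIs (unique molecules counted) in the members and 23062746 in the remaining 1875 cells, with a median of 13813.5 and 10923 UMIs per cell. The lungs' pericytes had medians of 7673, 8607 and 7423 UMIs. Between any 2 libraries 7 to 13 cell barcodes were shared. A doublet caller marked 30 cells of the sort (0.972%), of which 22 were members. The remaining sorted cells were a mixture. Gates on marker genes were set after the data were seen. Of the remaining cells 888 passed only a Hhip-Ednrb gate (at least 2 of Hhip, Ednrb, Fgf18 and Pdgfra and 300 CPM in sum). Another 422 passed only a matrix gate (likewise for Col13a1, Tcf21, Wnt2, Adh1 and Figf), and a further 264 passed both. Pecam1 and Epcam had to be at 0 in each gate. Values given below for either gate leave out the 264. Summed CPM of other cell types' marker lists was 171 in members against 294 in the remaining cells for endothelium, 36.7 against 944 for epithelium, 15.8 against 54.6 for immune cells and 251 against 2251 for red cells. Of those lists 1 of 12, 1 of 10, 1 of 10 and 3 of 7 genes were at 0 in the members, namely Pecam1 and Epcam by the rule, S100a8, and 3 red cell genes. Their part in the results was not tested.

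The rule genes, whose values chose the cells, were high in most members but not in all. Their summed level ranged from 301 to 10829 CPM over the members, with a median of 3762 and an interquartile range of 2432 to 4988. The members just inside the minimum had 301.2, 301.7 and 301.9 CPM, and the highest cells just outside with enough markers had 296.3, 292.4 and 291.6. All 4 genes were detected in 921 members and 3 in 289. Another 264 cells reached the minimum with only 2 of the genes, 68 had 3 or more genes but too low a sum, and 50 met both conditions but were dropped for Pecam1 (30 cells) or Epcam (20 cells). Over the members together Higd1b stood at 780 CPM against 48.7 in the remaining cells. Cox4i2 stood at 1290 against 125, Ndufa4l2 at 1308 against 170 and Kcnj8 at 259 against 15.4 CPM. Outside the members the summed level had a median of 152 CPM and a 95th percentile of 1275, so the comparison cells include some with levels like those of members. The genes were detected outside the members in 21.9% of cells for Higd1b, 45.8% for Cox4i2, 54.6% for Ndufa4l2 and 9.39% for Kcnj8. In cells of the E17.5 lungs with the leukocyte gene Ptprc, which should lack them, the shares were 4.90% ± 1.36, 21.2% ± 2.50, 11.4% ± 3.76 and 1.06% ± 0.618 (SD, n = 3 lungs), at a depth of 8497 UMIs per such cell in the first lung.

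**Figure D1:**
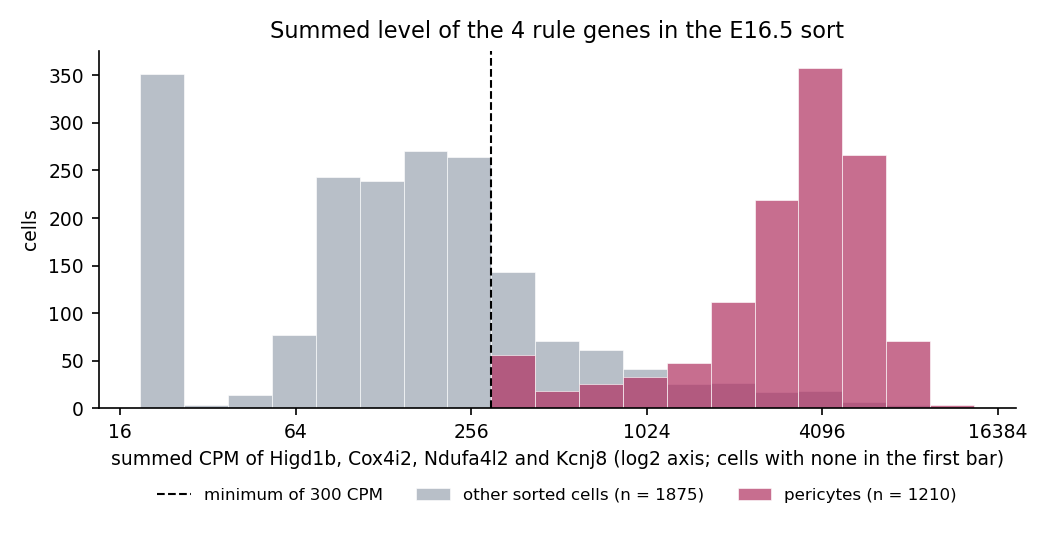
Number of sorted E16.5 cells (y axis) by the summed CPM of the 4 rule genes (x axis, log2 scale) for the 1210 pericytes and the 1875 remaining cells, with the minimum of 300 CPM as a dashed line. The interquartile range of the pericytes is 2432 to 4988 CPM, well above the minimum, and a thin tail reaches down to it.

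The label fits the cells of high summed level, goes against those near the minimum and is less clear for those between 600 and 1200 CPM. Genes that the rule did not use moved with it in both directions. Ebf1, an early B cell factor transcription factor, was at 104 CPM in the 74 members between 300 and 600 CPM, at 437 in the 59 between 600 and 1200, at 670 in the 160 between 1200 and 2400 and at 828 CPM in the 917 above. Pdgfrb, the PDGF-B receptor, had 98.3, 247, 330 and 423 CPM in the same order. Abcc9, the regulatory subunit of the Kcnj8 channel, had 5.34, 21.6, 52.6 and 108 CPM. Genes of the neighbouring mesenchyme ran the other way. Ednrb, the endothelin B receptor, had 668, 155, 64.3 and 20.7 CPM, Hhip, a hedgehog-binding inhibitor, had 251, 62.7, 26.3 and 5.05 CPM, and Mfap4, a microfibril protein, had 2486, 1245, 505 and 128 CPM. The elastin gene Eln was instead highest in the second band, at 3243, 4209, 1398 and 237 CPM. In the lowest band 48 of 74 cells also passed the Hhip-Ednrb marker condition and only 6 had all 4 rule genes, against 6 and 810 of 917 in the highest. Acta2 was at 4369, 3703, 2760 and 1323 CPM over the bands, and the contractile gene Tagln at 1704, 1463, 808 and 329. The second band was mixed, with more Ebf1 and Pdgfrb than the lowest but all 4 rule genes in only 18 of 59 cells. The cells of both bands are members by the rule, and levels over all members include them. For Eln, Mfap4, Ednrb and Hhip the level over all members was therefore well above that of the highest band.

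**Figure D2:**
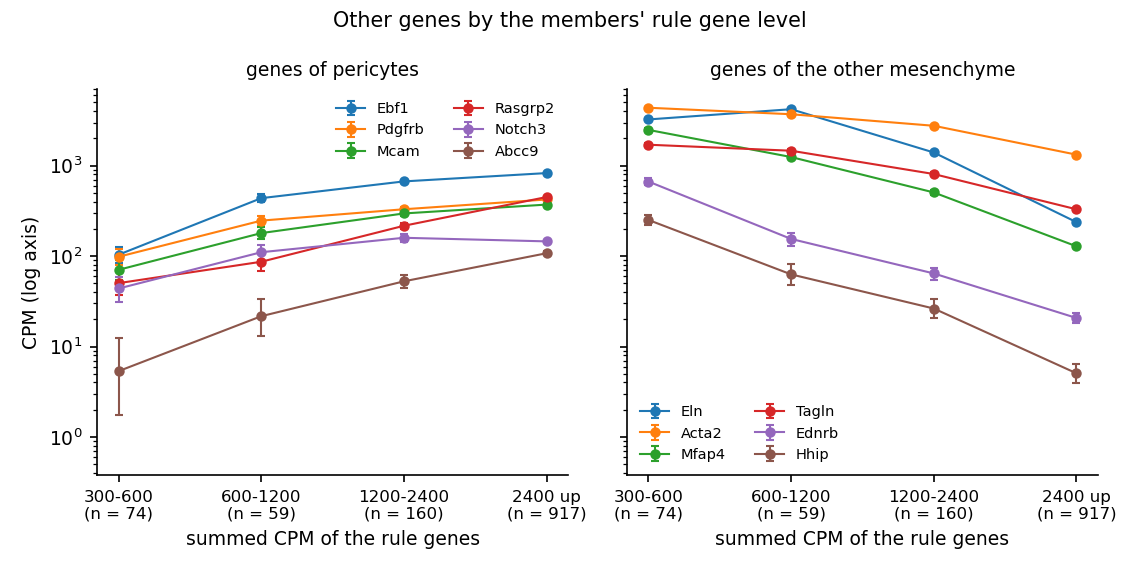
CPM (y axis, log scale) of 6 pericyte genes (left) and 6 genes of the other mesenchyme (right) in members split into 4 bands of the summed rule gene level (x axis, with the number of cells), with exact 95% Poisson intervals as bars. Ebf1 goes from 104 to 828 CPM from the lowest to the highest band while Hhip goes from 251 to 5.05 CPM.

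Genes were compared where the average of both groups reached 20 CPM, which 5729 did. Of these, 199 (3.47%) were at least 2-fold higher in pericytes than in the remaining sorted cells and 352 (6.14%) at least 2-fold lower. The median log2 ratio of all 5729 was -0.05. Since the remaining cells are a mixture, the 199 genes were also set against each gate: 190 were at least 2-fold higher than in the Hhip-Ednrb gate, 157 than in the matrix gate and 148 than in both. The same rule was applied in each E17.5 lung, with the other mesenchyme (1000 CPM or more of Col1a2, Col3a1 and Mfap4 in sum, and no endothelial, epithelial, immune or red cell marker) as the reference. There 191 of the 199 higher genes and 302 of the 352 lower ones had the direction of the sort in all 3 lungs, beside 2541 of all 5729 genes. By a fold of at least 2 in every lung the numbers were 152 and 152. The direction of the sort was the one against all remaining cells, so the references differ. Against the other mesenchyme of the sort, 195 of the 199 and 336 of the 352 stayed at least 2-fold apart. Most of the 5729 genes were under 2-fold in the sort, so their share is not a like background.

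The 4 rule genes were left out of these counts and of the ranking. The 12 genes with the highest ratios among the others came from several functional groups. Cpa1, which encodes a pancreatic-type carboxypeptidase, was at 88.7 CPM in pericytes and 5.46 in the remaining cells, a log2 ratio of 4.02 (counting interval 3.76 to 4.30), and the lungs' pericytes held 79.4, 140 and 95.4 CPM against 0.7 to 1.1 in their other mesenchyme. All 3 lungs thus showed it too. Agtr1a, an angiotensin II receptor, was at 83.7 against 7.37 CPM in the sort, and at 149, 174 and 171 CPM in the lungs' pericytes. Ccl2, a monocyte-attracting chemokine, was at 229 against 16.1 CPM. Pdzd2 (343 against 22.6 CPM), a PDZ domain protein, and Mapt (103 against 7.02 CPM), which encodes the microtubule protein tau, had log2 ratios of 3.92 and 3.87. Tnfrsf21, the death receptor DR6, had 3.44, Nostrin, a regulator of endothelial nitric oxide synthase trafficking, 3.38, and Rasgrp2, an exchange factor for small GTPases, 3.20. Postn, the matrix protein periostin, had 367 against 38.1 CPM and a log2 ratio of 3.27, and in the lungs' pericytes it was at 592, 744 and 694 CPM. Ebf1 (747 against 69.5 CPM), Epas1 (67.3 against 6.55 CPM), the hypoxia-inducible factor HIF-2α, and Abcc9 (89.7 against 6.89 CPM) complete the 12.

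**Figure D3:**
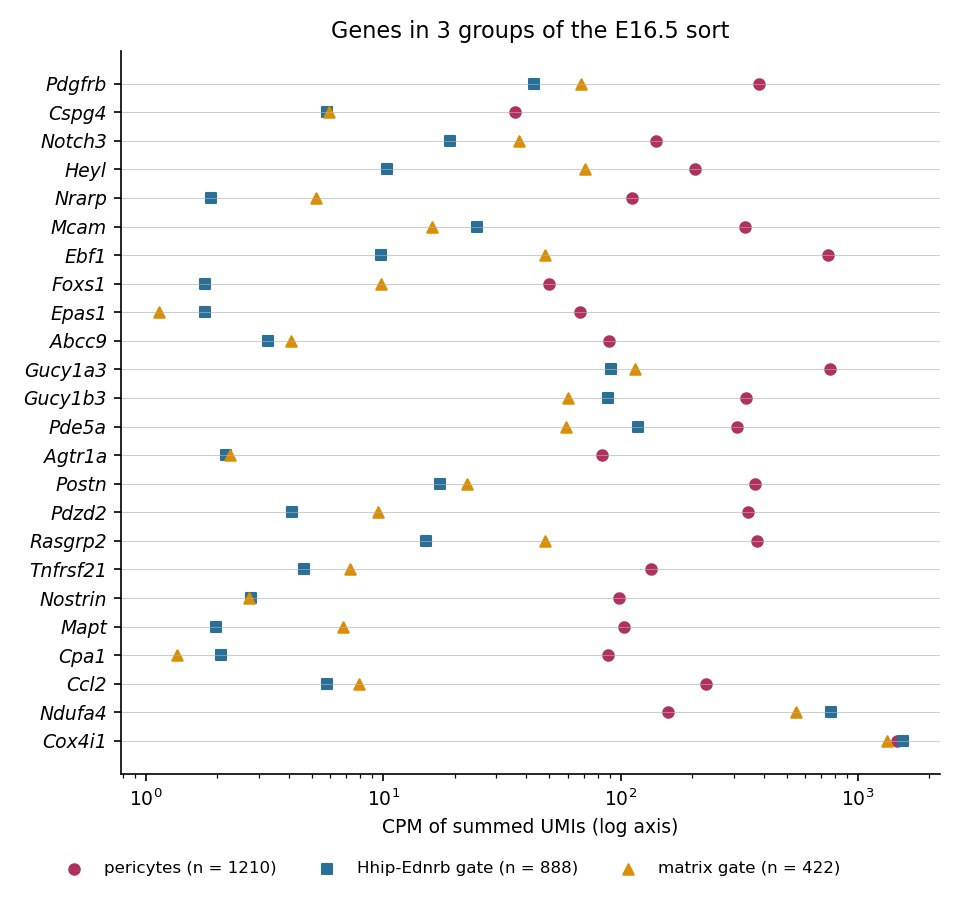
CPM of summed UMIs (x axis, log scale) of 24 genes (y axis) in the pericytes, the Hhip-Ednrb gate and the matrix gate of the E16.5 sort. The pericyte points lie to the right for the first 22 genes, Ndufa4 lies to the left at 158 CPM, and the 3 points of Cox4i1 nearly coincide.

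Kcnj8 and Abcc9 encode the pore and the regulatory subunit of 1 potassium channel and lie next to each other in the mouse genome (protein-coding genes of RefSeq, GRCm38.p6, chromosome 6). Abcc9 took no part in the rule. It was detected in 62.4% of members and 6.19% of the remaining cells, and in the lungs' pericytes it was at 61.2, 78.0 and 66.6 CPM against 2.4 to 2.9 in the other mesenchyme. The start regions of the pair are shown because these neighbours were high in the same cells; each runs from 250 bases before to 50 after the annotated start, 5′ to 3′ on the minus strand, from RefSeq's GRCm38.p6, at chr6:142571565-142571864 for Kcnj8 and chr6:142702225-142702524 for Abcc9. Capitals mark TGGGAA, the core bound by the Notch effector RBPJ, searched on both strands.

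Kcnj8: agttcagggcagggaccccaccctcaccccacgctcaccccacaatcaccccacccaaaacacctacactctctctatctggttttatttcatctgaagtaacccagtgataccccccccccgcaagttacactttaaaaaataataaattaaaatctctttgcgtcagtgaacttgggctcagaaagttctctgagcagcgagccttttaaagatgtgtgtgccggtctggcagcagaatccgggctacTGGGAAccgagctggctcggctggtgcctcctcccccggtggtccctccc

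Abcc9: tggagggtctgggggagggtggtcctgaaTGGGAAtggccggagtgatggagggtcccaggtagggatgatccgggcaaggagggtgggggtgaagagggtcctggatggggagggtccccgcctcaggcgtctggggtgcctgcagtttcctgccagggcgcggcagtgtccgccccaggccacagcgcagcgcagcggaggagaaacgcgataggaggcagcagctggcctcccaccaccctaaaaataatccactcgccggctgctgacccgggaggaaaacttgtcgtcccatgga

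Each window holds TGGGAA once, and 25.6% of 32851 RefSeq windows of the same length hold it at least once. Neither holds ACGTG, the core of hypoxia response elements, searched in the same way (19.6% of windows). Of the 12 genes above, 8 had 11 windows in the table, of which 5 held TGGGAA and 2 held ACGTG.

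Other genes commonly used for pericytes were read as a list of 23. For this list and those below, the shares over all 5729 counted genes were 3.47% at least 2-fold higher and 6.14% lower. The lists overlap, so their counts are not separate results. Notch3, Heyl, Gucy1a3, Gucy1b3, Pde5a, Agtr1a, Mcam, Postn, Ebf1 and Foxs1 of this list are counted again below. Of the 17 that reached 20 CPM, 15 were at least 2-fold higher in the members and 0 lower, and their median log2 ratio was 2.44. Pdgfrb was at 383 against 70.5 CPM and was found in 94.3% of members and 40.1% of the remaining cells. After each cell was thinned to 5000 UMIs the shares were 79.5% (77.1 to 81.8) and 23.3% (21.4 to 25.3), and in Ptprc-positive cells of the lungs Pdgfrb was seen in 1.04% ± 0.487 (SD, n = 3). Mcam (CD146), an adhesion molecule of mural and endothelial cells, was at 334 against 47.8 CPM. Cspg4, the proteoglycan NG2, was low but higher in members, at 36.0 against 8.41 CPM. Foxs1, a forkhead factor, had a log2 ratio of 2.51, Itm2a, a membrane protein, 2.58, and Emid1, an extracellular protein, 2.08. The exceptions were Rgs5, a G protein regulator often used as a pericyte marker, at 155 against 123 CPM, and Cd248 (endosialin), at 80.7 against 139 CPM. Rgs5 was as high in the Hhip-Ednrb gate (151 CPM) as in the members and low in the matrix gate (63.5 CPM), and it did not grow with the rule gene level (145, 241, 171 and 146 CPM over the 4 bands). In the lungs Rgs5 was at 119 ± 5.22 CPM in pericytes (SD, n = 3), with a log2 ratio over the other mesenchyme of 1.25, 0.93 and 0.85. Trpc6, a cation channel (18.2 against 2.86 CPM), Vtn, vitronectin (5.73 against 0.35), and Enpep, aminopeptidase A (7.62 against 16.4), were among the 6 that stayed under 20 CPM.

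Notch genes formed the second group. Of 7 that reached 20 CPM, 5 were at least 2-fold higher in members and 0 lower, with a median log2 ratio of 1.72. The receptor Notch3 was at 140 against 37.2 CPM and was detected at 5000 UMIs in 49.7% (46.8 to 52.6) of members, 9.28% of the Hhip-Ednrb gate and 14.8% of the matrix gate. Notch2, a second receptor, had a log2 ratio of 1.72. The target genes Heyl, a transcriptional repressor, and Nrarp, a feedback inhibitor, stood at 205 against 50.7 and 112 against 18.6 CPM. In the lungs' pericytes Nrarp was at 116, 163 and 104 CPM against 6.4 to 9.7 in the other mesenchyme.

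Genes of the nitric oxide response and of vasoactive receptors were high in members on the whole. Of 9 counted, 6 were at least 2-fold higher and 2 lower. Gucy1a3 and Gucy1b3, the subunits of the nitric oxide receptor guanylate cyclase, were at 759 against 120 CPM and 336 against 85.3 CPM. Pde5a, the phosphodiesterase that breaks down cyclic GMP, was at 309 against 102 CPM. Ednrb was the main exception, at 67.7 CPM in members, 684 in the remaining cells and 1220 in the Hhip-Ednrb gate. Of 8 ion channel and gap junction genes counted, 4 were at least 2-fold higher and 2 lower, with a median log2 ratio of 0.87. Gja4 (connexin 37) was at 42.8 against 6.76 CPM, Gjc1 (connexin 45) at 258 against 67.6, Atp1b2, a sodium pump subunit, at 61.8 against 24.9, and Trpc1, a cation channel, at 43.6 against 18.5. The calcium channel subunits Cacnb2 (12.9 against 34.0 CPM) and Cacna2d1 (15.5 against 32.4 CPM) were the lower ones. Of 15 integrin and adhesion genes, 5 were at least 2-fold higher and 4 lower, with a median log2 ratio of -0.06. Besides Mcam, the higher ones were the integrin subunits Itga1, Itga4 and Itga6 and the cadherin Cdh2 (N-cadherin), with log2 ratios of 2.32, 2.29, 2.51 and 2.68. The lower ones were Vcam1, Itga9, Ncam1 and Cdh11, with -2.24, -1.65, -1.19 and -1.02. Trpc1, Cacna2d1, Itga4 and these 4 were named after their values were seen.

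Of 9 basement membrane genes counted, 2 were at least 2-fold higher in members and 0 lower, with a median log2 ratio of 0.35 and a lowest of -0.88. The 2 were the collagens Col4a1 (618 against 299 CPM) and Col4a2 (285 against 139 CPM). Of 19 fibrillar collagen and matrix genes, 11 were at least 2-fold lower and only Postn was higher, with a median log2 ratio of -1.61. Of 14 elastic fibre genes, 7 were lower and 0 higher. Mfap4 stood at 364 CPM in members, 1525 in the Hhip-Ednrb gate and 6027 in the matrix gate. Lox, the collagen and elastin cross-linking enzyme, stood at 36.3 against 367 CPM and Eln at 770 against 2384. Among the 917 members above 2400 CPM of the rule genes, Eln was at 237 CPM and Mfap4 at 128. In the 59 members between 600 and 1200 CPM they were at 4209 and 1245. Dcn, the proteoglycan decorin, and Col13a1, a membrane collagen, both had log2 ratios of -3.39.

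Signalling genes of the neighbouring mesenchyme were low. Of 10 counted Wnt genes 7 were at least 2-fold lower in members and 0 higher, and of 5 hedgehog genes 3 were lower and 0 higher. The Wnt inhibitor Wif1 was at 12.5 against 102 CPM, the ligand Wnt2 at 5.34 against 39.8, the hedgehog receptor Ptch1 at 27.1 against 105 and Hhip at 24.0 against 243. Pdgfra, the receptor for PDGF-A, was at 20.1 against 201 CPM, the opposite of Pdgfrb. Tgfbi, a secreted matrix protein, was at 131 against 1337 CPM, and Rgs2, a G protein regulator, at 83.4 against 549. Of growth genes, Igf1 was at 78.2 against 811 CPM, while the imprinted genes Dlk1, a Notch ligand-like protein, and Mest stood at 2810 against 917 and at 1274 against 365. Among the chemokine genes Ccl11 (398 against 59.7 CPM) and the receptor Cxcr4 (46.8 against 11.3 CPM) were higher in members. In the lungs Ccl11 was not, with log2 ratios over the other mesenchyme of 0.19, -0.24 and -0.46.

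The 8 lowest ratios belonged in part to other cell types. Scgb3a2, Sftpc and Wfdc2 are epithelial genes, with log2 ratios of -5.06, -4.63 and -4.01, and against the other mesenchyme of the sort alone these became -0.35, -0.11 and -0.21. Cxcl14, a chemokine, Aldh1a7, an aldehyde dehydrogenase, Fgf18, a fibroblast growth factor, Scara5, a ferritin receptor, and Fmo2, a monooxygenase, had -3.99, -3.68, -3.64, -3.61 and -3.58, and stayed between -4.21 and -3.53 in that narrower comparison. Fgf18 is itself one of the genes that define the Hhip-Ednrb gate. Its level there was 189 CPM, against 7.96 in members.

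The respiratory chain genes gave a contrast among paralogues. Ndufa4, the widely expressed complex IV subunit of which Ndufa4l2 is the paralogue, was low in members, at 158 CPM (152.6 to 164.3) against 666 in the remaining cells, 773 in the Hhip-Ednrb gate and 551 in the matrix gate. The log2 ratio was -2.07 (-2.13 to -2.01). At 5000 UMIs it was detected in 43.1% (40.3 to 46.0) of members and in 96.5% and 90.9% of the gates. Within the members Ndufa4 was at 601, 317, 235 and 101 CPM from the lowest to the highest band of the rule genes, so the cells with most rule gene UMIs, Ndufa4l2 among them, had least of it. In the lungs' pericytes it was at 122, 97.5 and 97.6 CPM against 469, 432 and 450 in the other mesenchyme, a log2 ratio of -1.94, -2.15 and -2.20. Cox4i1, the paralogue of Cox4i2, behaved differently. It stood at 1456 CPM in members and 1453 in the remaining cells, a log2 ratio of 0.00 (-0.02 to 0.03), and at 1442, 1322, 1400 and 1478 CPM over the bands. Higd1a and Higd2a, relatives of Higd1b, had log2 ratios of -0.05 and -0.41. Of 14 hypoxia and glycolysis genes, 2 were at least 2-fold higher (Epas1 and Aldoa, a glycolytic enzyme at 573 against 278 CPM) and 2 lower (Egln3, an oxygen sensor, at 19.9 against 64.9, and Bnip3, a mitophagy protein, at 18.1 against 47.8).

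Of 28 mesenchymal transcription factors, 5 were at least 2-fold higher and 5 lower. Tbx4, whose Cre marks the lineage, was at 35.7 CPM in members and 45.1 in the remaining cells, and at 5000 UMIs it was found in 15.5% and 20.8% of cells. Tcf21, a factor of lung fibroblasts, had similar means, 158 and 184 CPM, that hid different distributions. At 5000 UMIs it was detected in 50.9% (48.0 to 53.7) of members, 5.43% of the Hhip-Ednrb gate and 86.2% of the matrix gate. Tcf21 helped to define the matrix gate, and cells that passed both gates were left out of the Hhip-Ednrb gate, so both shares depend in part on the gates. Its level did not follow the rule genes (192, 159, 149 and 157 CPM over the bands).

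Acta2, the smooth muscle actin whose reporter was used for the sort, was lower in the members than in the remaining sorted cells. It was at 1817 CPM (1797 to 1837) against 3765 (3740 to 3790), a log2 ratio of -1.05. The median member had 767 CPM with an interquartile range of 326 to 1823, and the 5th to 95th percentile ran from 93.8 to 7824. The median of the remaining cells was 2614 CPM, and 17.9% of members lay above it. The Hhip-Ednrb gate was at 5721 CPM and the matrix gate at 1279, so the members lay between the gates in summed level. Their median was under that of the matrix gate (1039 CPM). A UMI of Acta2 was found in 97.2% (96.1 to 98.0) of members and 99.0% of the remaining cells, and after thinning to 1000 UMIs in 55.8% (52.9 to 58.6) and 79.0% (77.1 to 80.8). In the Ptprc-positive cells of the lungs the unthinned share was 22.2% ± 4.67 and the thinned share 3.90% ± 1.01 (SD, n = 3).

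**Figure D4:**
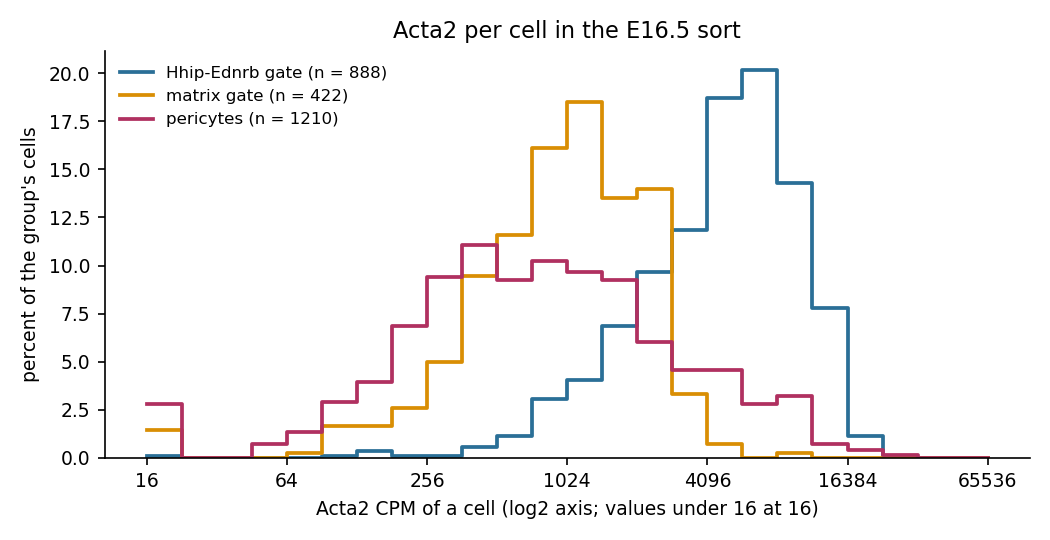
Share of each group's cells in percent (y axis) by Acta2 CPM of the cell (x axis, log2 scale) for the pericytes, the Hhip-Ednrb gate and the matrix gate of the E16.5 sort. The pericytes spread widely around a median of 767 CPM, below the Hhip-Ednrb gate and with a longer upper tail than the matrix gate.

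The width of the Acta2 distribution came with other differences among the members. Those with all 4 rule genes were at 1387 CPM and those with 3 at 3400. When members were split into 4 equal groups by their own Acta2, the contractile genes Tagln (SM22), with 58.7, 78.6, 228 and 1659 CPM, and Actg2, with 23.6, 29.1, 64.4 and 540 CPM, stepped up with it. Eln had 145, 188, 493 and 2129 CPM. Higd1b went the other way, with 1086, 1030, 728 and 332 CPM. So did Pdgfrb (445, 438, 387 and 274 CPM), Rasgrp2 (473, 443, 374 and 230 CPM), Abcc9 (106, 99.9, 88.1 and 67.3 CPM) and Kcnj8 (308, 277, 271 and 189 CPM). The contractile gene Des was also lowest in the highest group, with 290, 298, 269 and 177 CPM. Ebf1 (802, 804, 761 and 631 CPM), Mcam (292, 373, 344 and 328 CPM) and Notch3 (130, 122, 145 and 161 CPM) differed less between the groups. The highest of these groups also held more Hhip-Ednrb RNA, with Ednrb at 185 CPM against 15.3 in the lowest and Hhip at 74.5 against 2.38. With the summed minimum at 1500 CPM, a value chosen after seeing the data that drops the lower bands, the log2 ratio of Acta2 was -1.35.

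Contractile genes as a list were lower in members than in the remaining cells, with exceptions. Their summed level, with Acta2, was 7775 CPM in members, 17950.5 in the Hhip-Ednrb gate and 5177 in the matrix gate, so the members lay between the gates. Of 22 counted, 10 were at least 2-fold lower and 2 higher, with a median log2 ratio of -0.78. Myh11, smooth muscle myosin heavy chain, was at 43.8 against 170 CPM, Cnn1 (calponin) at 19.8 against 97.7, Tagln at 530 against 1284 and Mylk, myosin light chain kinase, at 285 against 816. Mustn1, Synpo2, Lmod1, Actg2 and Csrp2 had log2 ratios from -2.18 to -1.07. Des, the intermediate filament desmin, was higher at 256 against 83.6 CPM, and so was Aoc3, an amine oxidase, at 32.6 against 7.93. Ppp1r14a, an inhibitor of myosin phosphatase, was at 719 against 433 CPM, Cald1 (caldesmon) at 1097 against 871, both under 2-fold, and Smtn (smoothelin) had a log2 ratio of 0.40. Tpm2, a tropomyosin, and Flna, an actin cross-linker, had -0.21 and -0.27.

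In the lungs the same comparison gave other values. Acta2 was at 1271, 1385 and 1637 CPM in the pericytes and at 993, 1073 and 1259 CPM in the other mesenchyme, so each lung had it higher in pericytes, by log2 ratios of 0.36, 0.37 and 0.38. In the sort the ratio over the other mesenchyme was -1.22. The level in the pericytes themselves was close, 1817 CPM in the sort beside 1431 ± 188 in the lungs (SD, n = 3). The other mesenchyme of the sort was at 4224 CPM and that of the lungs at 1108 ± 136. The sort selected on the reporter of this gene, which cannot be told apart from stage and library here. Myl9, a myosin light chain, had log2 ratios of -0.69 in the sort, but 1.20, 1.75 and 1.16 in the lungs, and Lmod1, an actin nucleator, -1.83 and 0.95, 1.70 and 0.78. Tagln was below the other mesenchyme in both settings (-1.46 in the sort, with -0.06, -0.47 and -0.07 for the lungs), while Des and Aoc3 were above it in both.

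**Figure D5:**
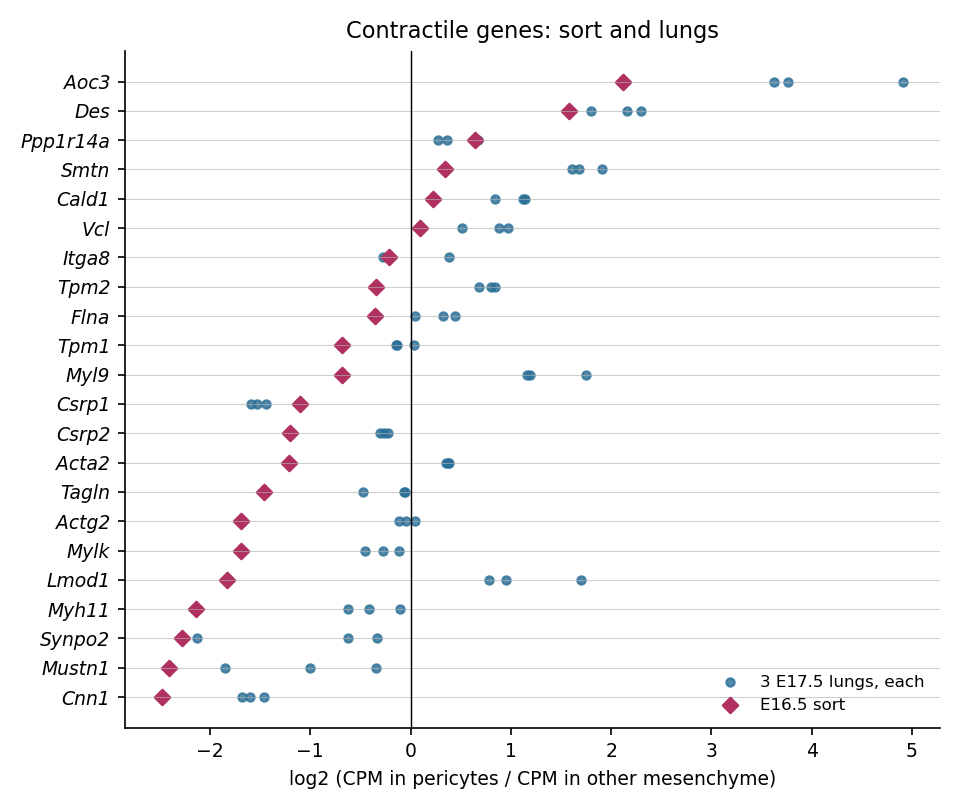
Log2 ratio of CPM in pericytes to CPM in the other mesenchyme (x axis) for the 22 counted contractile genes (y axis), with 1 diamond for the E16.5 sort and 1 point for each of the 3 E17.5 lungs. For Acta2 the diamond is at -1.22 and the points are at 0.36 to 0.38, and most points lie to the right of the diamond of their gene.

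Cell cycle genes were higher in the members. A cell thinned to 5000 UMIs was called cycling when it held at least 5 UMIs over a list of 36 G2 and M phase genes. By this measure 733 of 1201 members (61.0%, 58.2 to 63.8) were cycling, against 39.1% (36.8 to 41.3) of 1853 remaining cells, 31.0% of the Hhip-Ednrb gate and 40.6% of the matrix gate. The thinning left out 9 members and 22 other cells. Without thinning the shares were 90.0% and 73.4%. Summed levels of members and remaining cells gave the same order, 4482 against 3447 CPM for the G2 and M list and 1912 against 1231 CPM for 28 S phase genes. The 264 cells that passed both gates had a cycling share of 47.7%. Their G2 and M sum, 4965 CPM, was above that of the members, and their S phase sum, 1497 CPM, was below it. All 24 counted S phase genes and 31 of 32 counted G2 and M genes had a log2 ratio above 0, although only 1 reached 2-fold. The median log2 ratio of all 5729 counted genes was -0.05. Only 9 of the 24 and 20 of the 32 had the direction of the sort in all 3 lungs, beside 2541 of all 5729. Members called cycling had a median of 15507 UMIs and the others 12179.5. Pdgfrb (382 against 380 CPM), Abcc9 (89.2 in both) and Higd1b (781 against 775) were alike in cycling and other members. Ebf1 was lower in cycling members, at 701 against 833 CPM (log2 ratio -0.25, -0.30 to -0.20), as was Kcnj8, at 244 against 292 CPM (log2 ratio -0.26, -0.35 to -0.17). Acta2 was at 1609 against 2247 CPM and the cyclin gene Ccnd2 at 497 against 755. In the lungs 35.3, 29.5 and 54.0% of pericytes were cycling (39.6% ± 12.8, SD, n = 3) beside 30.0, 29.5 and 32.2% of the other mesenchyme. The third lung was thus the highest, the second had equal shares, and the spread over lungs is wide with 50 to 68 cells each.

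Between the pericytes of the sort and those of the lungs, a gene was counted as apart when its level in the sort was 2-fold or more beyond that of each lung. An average of 50 CPM was required, which 2845 genes reached, and 14 (0.492%) of them were higher in the sort and 125 (4.39%) lower. The number of higher genes rested on single lungs, with 29 without the first lung and 44 without the third. Ccl2 was among them, at 229 CPM against 53.0, 43.9 and 53.2, with 9.61 CPM in the other mesenchyme of the sort and 12.1 ± 6.43 in that of the lungs. The S phase genes Rrm2 (116 CPM against 13.2, 19.5 and 57.7) and Tyms (124 against 31.4, 14.6 and 51.0), which supply nucleotides, were others. Gm10076, a predicted gene whose reads may be shared with a near-identical copy, and Hbb-bs, a globin of red cells at 247 CPM against 4.96, 26.0 and 11.1, complete the 5 highest. In the other mesenchyme Rrm2 was also higher in the sort, at 59.7 CPM beside 25.9 ± 5.08 in the lungs. So were Tyms (71.2 and 30.4 ± 5.16), Gm10076 (2197 and 820 ± 499) and Hbb-bs (44.2 and 15.4 ± 11.5). Of the 14 higher genes, 1 was at least 2-fold higher in the other mesenchyme of the sort than in that of every lung. The 5 lowest were immune genes: S100a8 with 0 UMIs in the sort against 1704, 40.6 and 1389 CPM, then Lgals3, Tyrobp, Lyz2 and Cxcl2, all at 0.06 to 0.83 CPM in the sort and 92.5 to 249.5 CPM on average in the lungs. The other mesenchyme of the lungs held them too, but not all at levels like those of the pericytes. The log2 ratio of pericytes over it was 0.08, 0.26 and 0.39 for Lgals3 and 0.36, 0.11 and 0.68 for Lyz2. On average Tyrobp was at 112 CPM in the lungs' pericytes against 72.6 in the other mesenchyme, and Cxcl2 at 92.5 against 57.9. S100a8 was at 56.5 ± 9.63 CPM in the other mesenchyme (SD, n = 3 lungs). The pericytes with 1704 and 1389 CPM lay far above that level, and those with 40.6 CPM lay below it. Cells with the leukocyte gene Ptprc were left out of the other mesenchyme but not of the pericytes, so these groups were not filtered alike. The part of RNA from other cells was not tested. Of the 125 lower genes, 96 were also at least 2-fold lower in the other mesenchyme of the sort than in that of every lung. Of 18 immediate early and stress genes counted, 16 were among the 125. Fos was at 273 CPM in the sort against 2896, 2968 and 2032. In the other mesenchyme Fos was at 835 CPM in the sort, beside 3837 ± 356 in the lungs.

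Of 17 other pericyte genes counted in this comparison, 1 was lower in the sort and 0 higher, beside 4.39% of all 2845 genes lower. It was Cspg4, at 36.0 CPM against 91.0, 86.1 and 86.5 in the lungs. Of the 4 rule genes, Higd1b was lower, which is a description only, since its values helped to choose the cells in both sets and the depths differ. It was at 780 CPM against 1574, 2092 and 1850 in the lungs. Both lay outside the range of the lungs, whereas Pdgfrb (383 CPM, against 411 ± 66.4) and Ebf1 (747 CPM, against 700 ± 20.3) were close to it. Not all other pericyte genes were close: Postn and Agtr1a, by the values given above, were under every lung, though less than 2-fold under the lowest. In the other mesenchyme Higd1b was at 18.6 CPM in the sort, beside 8.11 ± 0.751 in the lungs, and Cspg4 at 7.47 and 7.81 ± 2.40. Mfap4 was lower in the sort, at 364 CPM against 1091, 978 and 1094, and so it was in the other mesenchyme, at 2671 CPM against 8653 ± 270. Of all cells 2.80, 3.18 and 2.22% were members in the lungs (2.73% ± 0.482, SD, n = 3), a share whose denominator holds every cell type of the lung and is not comparable with the 39.2% of the sort.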

How the data were processed

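Single-cell RNA was measured in the sorted sample and in 3 lungs. Litters are not named in the labels, so the spread between lungs may be in part technical. Cell Ranger 1.3.1 and Seurat 3.0.0 appear in the submitters' processing notes without a role. The authors' genome build was not given in the sources used here. Per the files, the deposited signal values are linear, and every cell of a file sums to that file's median depth. They were whole multiples of a cell's smallest value (100% of values, tolerance 0.01), so UMI counts were recovered, and the files held 41038008, 23996253, 20347458 and 21358915 of them. No column was left unused.

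UMIs were summed over the cells of a group and divided by its total (CPM). Ratios of sums have exact 95% intervals for counting error only; with 1 sorted sample no count test was run. A count of 0 was set to 3 for ratios. Doublets were called with Scrublet in scanpy 1.11.5 and kept, and left out in an alternative. Python 3.11.15, numpy 2.4.6 and scipy 1.17.1 were used, and the ratios were checked on simulated counts. Named genes were the 12 highest and 8 lowest ratios, the members of fixed gene lists that were 2-fold apart (or the 4 largest ratios), and any gene of the pericyte, contractile and paralogue lists, with the 5 highest and lowest between sort and lungs. Cell cycle, band and Acta2 group genes were chosen separately. The members, gates and lists were chosen with earlier results of these data known.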

Additional observations from a re-analysis of the deposited data

Results flagged for a closer look

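Of 100 genes examined singly, 6 had opposite directions in the 2 settings: pericytes lay below the other mesenchyme in the sort and above it in all 3 lungs. The log2 ratios in the sort were -1.22 for Acta2, -0.90 for Cd248, -0.69 for Myl9, -0.35 for Tpm2, -1.83 for Lmod1 and -0.36 for Flna. The means over the lungs were 0.37 ± 0.01, 0.32 ± 0.17, 1.37 ± 0.33, 0.78 ± 0.08, 1.14 ± 0.49 and 0.27 ± 0.21 (SD, n = 3) in the same order. Of these genes 5 belong to the contractile list, and Cd248 is a surface protein of mural cells and fibroblasts. In the pericytes themselves Tpm2 was at 514 CPM in the sort and 410 ± 57.5 in the lungs, and Flna at 169 and 225 ± 44.9. In the other mesenchyme Tpm2 was at 654 CPM in the sort and 238 ± 22.6 in the lungs, and Lmod1 at 52.7 and 15.7 ± 5.53. The difference between the sort and the lungs was not tested, since the sort is 1 sample.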

How the results depend on the processing

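The share of members in the sort, 39.2%, was 41.3% with a minimum of 150 CPM, 36.8% with 600, 34.1% with 1500 (chosen after seeing the data), 29.9% when all 4 genes were required, 47.8% with 2 of 4 and 34.4% on cells thinned to 5000 UMIs. The 199 genes higher and 352 lower became 355 and 877 with a minimum of 5 CPM and 112 and 154 with 50 CPM, and 331 were higher against cells with none of the 4 rule genes. The other alternatives stayed within 1.5 times. The log2 ratio of Acta2 was -1.15 as a mean over cells, -1.32 against cells with none of the rule genes, -1.22 against the other mesenchyme, -1.09 without called doublets, -1.42 with all 4 genes and -1.35 at 1500 CPM. The cycling share of members was above that of the remaining cells by 22.0 percentage points, and by 15.2 with 3 list UMIs, 16.6 without thinning and 29.2 against cells with none of the rule genes. The lungs' share of members, 2.73%, was 1.67% with all 4 genes, and 2.51 to 2.99% with 1 lung left out. Genes higher in the sort's pericytes than in the lungs', 14, were 33 with a minimum of 20 CPM, 8 under median-of-ratios scaling and 18 to 44 with 1 lung left out, and the 125 lower were 251 with 20 CPM and 133 to 145 with 1 lung left out. Of 85 genes examined singly that were 2-fold apart, 76 had the sort's direction in all 3 lungs, and 74 to 77 under the alternatives. Among all 5729 counted genes, most of them under 2-fold in the sort, 2541 had it. The sort's direction was again the one against all remaining cells. Of 816 single-gene ratios 1 reversed a 2-fold difference, that of the globin gene Hbb-bs against the other mesenchyme, at 2.48. Among all genes counted as 2-fold apart, the globin genes Hbb-bt (2.68), Hba-a1 (2.19) and Hba-a2 (2.13) also turned from lower to higher there. Cells with the red cell gene Alas2 were left out of the other mesenchyme but not of the members. The globin ratios thus compare groups that were not filtered alike. No paired analysis was possible because the comparisons come from no test and the lungs share no number with a second group of samples. With 1 sorted sample no difference between animals can be judged, and low genes in the lungs rest on 59 to 75 cells.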
